A study of Homo sapiens with 12 samples.

Results

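LINC is the symbol prefix of long intergenic noncoding RNA genes that have not been given a name of their own. The 186 LINC genes described here were selected on 1 measured value, a mean raw read count of at least 10 over the 12 samples, among rows whose symbol is LINC followed only by digits. They were 186 of 611 LINC genes and of 25369 genes in the counts. The other 425 LINC genes lay under that level, and 99 of these had no read in any sample. Just inside the limit were LINC00853, with a mean of 10.0 reads, and LINC00959 and LINC00310, each with 10.2. Just outside it were LINC00854 and LINC00887, each with 9.92 reads, and LINC00950 with 9.83.

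Poly(A) RNA was sequenced from 4 stable Tet-On lines of U2OS, a human osteosarcoma cell line, with 3 biological replicates per line. The control line carried the empty vector pTRE, and the other lines carried HA-tagged E2F1 as the wild type (WT), with 1 arginine changed to lysine (R109K), or with a pair of nearby arginines changed to lysine (R111/113K, called KK). All 4 lines, pTRE included, received doxycycline at 1 µg/ml for 24 hours, the drug that turns on the vector. R109K removes the residue that PRMT1 methylates and KK the residues that PRMT5 methylates. Each construct was measured in 1 cell line, so the construct and any other difference between lines cannot be told apart, and the sources used here do not say how many clones a line came from.

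Long noncoding RNAs are transcribed by RNA polymerase II and are usually spliced and polyadenylated, but they carry no long conserved reading frame. They are mostly less abundant and more restricted to particular tissues than messenger RNAs. Some act as scaffolds or decoys for proteins, some host microRNAs in their introns or exons, and some that were first listed as noncoding were later found to encode a small protein. E2F1 is a transcription factor that binds GC-rich sites in the promoters of cell cycle genes, and it can also repress genes.

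The E2F1 transcript served as the check of the labels. Its level was 91.2 ± 9.43 CPM (SD, n = 3; CPM is the gene's reads scaled to the library's TMM-normalized total on genes) in pTRE, 1811 ± 445 in WT, 1158 ± 196 in R109K, and 1316 ± 187 in KK. Between 11500537 and 31040903 reads per sample fell on genes. WT replicate 2 stood apart, with 58.7% of its reads assigned to no gene feature, against 23.6% to 29.6% in the other 11 samples. Whether such reads lay in introns, on the other strand, or between genes is not given. LINC genes whose WT call was lost or gained without WT replicate 2 are named below. Values for WT include that replicate unless stated. Among osteoblast lineage markers, RUNX2 (7.78 to 18.8 CPM), COL1A1 (541 to 4080), and SPARC (457 to 1790) were present, while ALPL was at 0.321 to 2.61 CPM, SP7, BGLAP, and IBSP had at most 6 reads in any sample, and COL1A2 had at most 16. Of the epithelial markers, KRT8 and KRT18 were at 168 to 578 and 185 to 332 CPM, EPCAM at 9.88 to 14.7, and CDH1 at 0.509 to 1.44, while KRT19 had at most 3 reads. Markers of other cells were uneven, with CD68 at 14.0 to 27.5 CPM, VWF at 0.562 to 2.81, and PTPRC at 0.205 to 0.711, while CD3E and PECAM1 had at most 2 reads.

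Of the 186 LINC genes, 169 could be placed on GRCh37 (hg19) with the GENCODE annotation. The promoters of 4 of them are shown because their RNAs are those that the comparisons below turn on. LINC00346, LINC01024, and LINC01204 are the LINC genes that the main edgeR fit called between E2F1 lines, a set that changed with the method. LINC00689 is the LINC gene called regulated whose promoter held an E2F motif. Each line runs 5′ to 3′ on the gene's strand, from 250 bases before the start site to 50 after it, and capitals mark the motif. The start site is that of the canonical GENCODE transcript, which can lie inside the span of all transcripts of a gene. For LINC00689 it is 158801112 and for LINC01204 45369729, while their spans begin at 158799213 and 45364633. The windows shown lie at chr13:111522628-111522927 (minus strand), chr5:139488802-139489101 (minus strand), chrX:45369479-45369778 (plus strand), and chr7:158800862-158801161 (plus strand), in that order.
LINC00346: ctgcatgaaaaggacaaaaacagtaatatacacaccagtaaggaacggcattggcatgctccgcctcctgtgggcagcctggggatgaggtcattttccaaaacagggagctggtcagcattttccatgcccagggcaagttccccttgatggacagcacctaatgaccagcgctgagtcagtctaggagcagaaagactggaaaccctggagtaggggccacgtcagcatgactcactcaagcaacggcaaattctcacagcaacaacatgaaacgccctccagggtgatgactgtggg
LINC01024: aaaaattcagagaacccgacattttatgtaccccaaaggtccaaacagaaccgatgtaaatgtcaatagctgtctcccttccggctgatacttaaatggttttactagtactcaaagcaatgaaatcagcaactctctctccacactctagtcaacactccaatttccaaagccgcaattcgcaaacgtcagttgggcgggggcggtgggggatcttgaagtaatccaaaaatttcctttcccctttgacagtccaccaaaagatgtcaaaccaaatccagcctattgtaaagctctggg
LINC01204: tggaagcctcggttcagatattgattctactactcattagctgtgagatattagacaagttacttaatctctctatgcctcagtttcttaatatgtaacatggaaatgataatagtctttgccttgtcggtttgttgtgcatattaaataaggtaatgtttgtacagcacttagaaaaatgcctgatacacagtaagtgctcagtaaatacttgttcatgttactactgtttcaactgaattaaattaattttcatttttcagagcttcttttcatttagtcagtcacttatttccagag
LINC00689: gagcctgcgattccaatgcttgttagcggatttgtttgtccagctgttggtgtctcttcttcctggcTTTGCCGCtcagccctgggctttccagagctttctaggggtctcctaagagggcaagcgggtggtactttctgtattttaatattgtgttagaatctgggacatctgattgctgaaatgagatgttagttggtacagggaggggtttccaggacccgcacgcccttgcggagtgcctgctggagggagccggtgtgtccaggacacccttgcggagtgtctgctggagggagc
The motifs searched, on both strands, were TTTCGCGC, TTTGGCGC, TTTCCCGC, and TTTGCCGC, which differ from each other only at the fourth and the fifth letter. The match in LINC00689 was TTTGCCGC, starting 183 bases before this start site and thus inside the annotated span of the gene. At least 1 motif was found in 5 of the 169 LINC promoters (2.96%), and in 703 of 14753 promoters (4.77%) of all tested genes. LINC00893, LINC00960, LINC01023, and LINC01237 held the other matches, and none of these was called in any line. The median GC content of the LINC promoters was 54.3%, against 65.7% for all tested genes. The share with a motif therefore stood beside a lower GC content, whose part in it was not tested.

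All 186 LINC genes passed edgeR's filter on low counts, as did 26 LINC genes under the limit. Their mean raw counts ran from 10.0 to 5709 with a median of 69.5, while the median of the 16625 genes tested was 540.8. Thus 110 of the 186 had fewer than 100 reads per sample on average, and 8 had at least 1000. For 9 of them the mean fell under 10 when the line with the highest level was left out, so they were included because of that line, and 3 of these 9 were called in a comparison with pTRE (LINC00461, LINC01056, and LINC01158). Per kilobase of annotated exon, the most abundant were LINC00674 (684 CPM per kb), LINC00657 (41.4), LINC00999 (21.4), LINC00998 (19.9), and LINC00493 (16.8). The value of LINC00674 rests on an annotated exon length of 160 bases, which may not be the length that was counted. LINC00657 is NORAD, a cytoplasmic RNA that binds PUMILIO proteins, and LINC00998 and LINC00493 are now SMIM30 and SMIM26, which encode small membrane proteins.

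A gene was called up- or down-regulated when its adjusted p-value was below 0.01 and its change greater than 2-fold, in 1 edgeR model of all 12 samples. In WT against pTRE, 19 LINC genes were up-regulated (10.2%) and 17 down-regulated (9.14%), while the background over all genes tested was 7.89% up and 3.93% down. In KK, 20 were up-regulated (10.8%) and 18 down-regulated (9.68%), with a background of 7.01% and 3.9%. In R109K, 13 were up-regulated (6.99%) and 10 down-regulated (5.38%), with a background of 4.64% and 2.56%. LINC genes were thus called down more than up relative to the background in each of the 3 lines, as a description without a test of the list. The median change over all 186 was -0.09 (log2) in WT, -0.18 in KK, and -0.14 in R109K, and that over all genes tested was within 0.01 of 0. All 3 comparisons share the pTRE samples, and in bulk RNA a change of level in every cell and a change in the share of cells cannot be told apart. The 36, 38, and 23 called LINC genes had 3 values in the line that did not overlap the 3 of pTRE. The calls rest on these same values, so the separation is no further support, and no share over all genes is given.

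**Figure D1:**
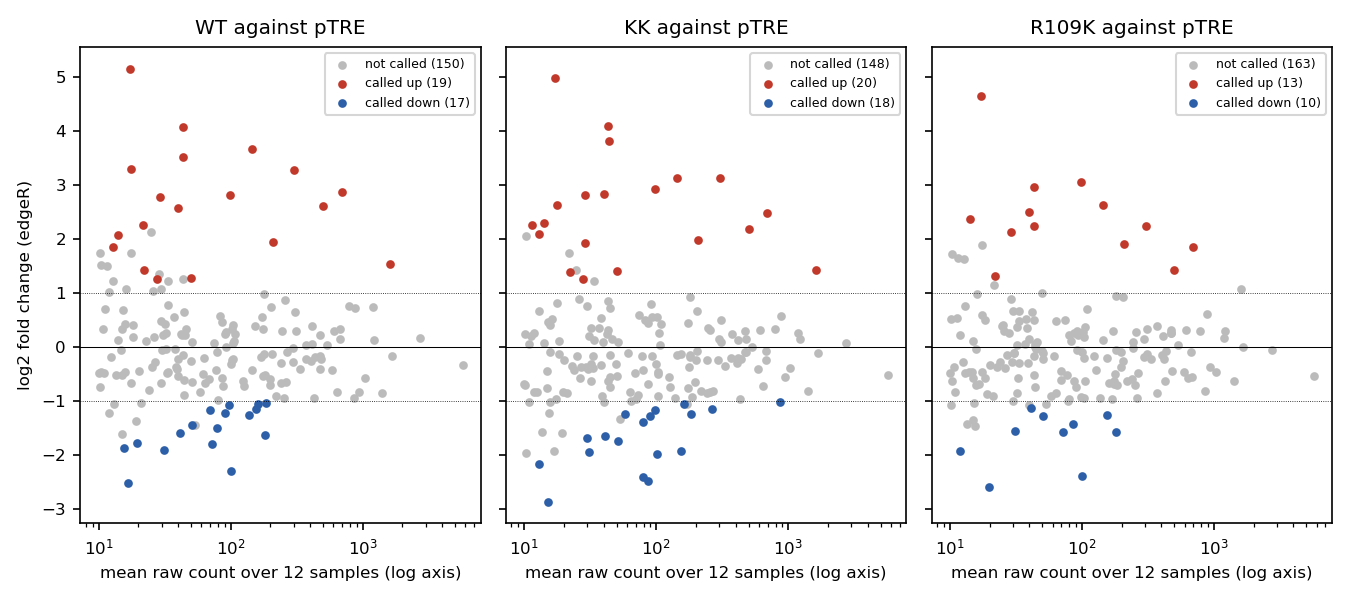
Log2 fold change against pTRE (vertical axis) by mean raw count over the 12 samples (horizontal log axis) for the 186 LINC genes in WT, KK, and R109K, with points coloured by call and dotted lines at 2-fold. Calls lie at mean counts from 11.5 to 1612, with 36 in WT, 38 in KK, and 23 in R109K, while the LINC genes reach 5709.

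Other classes of noncoding RNA were taken by their symbols at the same minimum count. Of the 358 antisense (-AS) genes, 32 rose and 9 fell in WT, 24 and 13 in KK, and 18 and 5 in R109K. These make 11.5%, 10.3%, and 6.42% called in either direction. None of the 18 SNHG genes, which host small nucleolar RNAs, was called by edgeR in any line, and their median changes lay from -0.24 to -0.21. At an unadjusted p below 0.05 there were 7, 7, and 6 in WT, KK, and R109K. No share of all genes at that unadjusted threshold is given, so nothing is read from these numbers. Of the 12 microRNA host genes with a MIR symbol, 2 rose in WT (MIR600HG and MIRLET7BHG) and MIR600HG alone rose in KK and R109K. The 15421 genes with other symbols had 11.8% called in WT, 10.8% in KK, and 7.27% in R109K, and the LINC genes 19.4%, 20.4%, and 12.4%. The antisense shares thus lay close to those of the other symbols. The SNHG and MIR classes are too small for their shares to be compared. LINC and antisense genes differ from the other symbols in depth, with median mean counts of 69.5 and 42.7 against 634.3, and the part of depth in these shares was not tested.

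Over the 3 lines, 47 LINC genes were called against pTRE at least once, 21 of them up and 26 down, and no gene was called in opposite directions. Of these, 13 were up-regulated and 6 down-regulated in all 3 lines, while 139 were never called. The mean raw counts of the 21 ran from 11.5 to 1612 and those of the 26 from 11.9 to 863. Outside the calls, the changes in WT closest to 0 ran from -0.04 to 0.04, and the largest were 2.14 for LINC00597 (SE 0.90, adjusted p = 0.0721) and 1.75 for LINC00310 (SE 0.70, adjusted p = 0.0577).

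**Figure D2:**
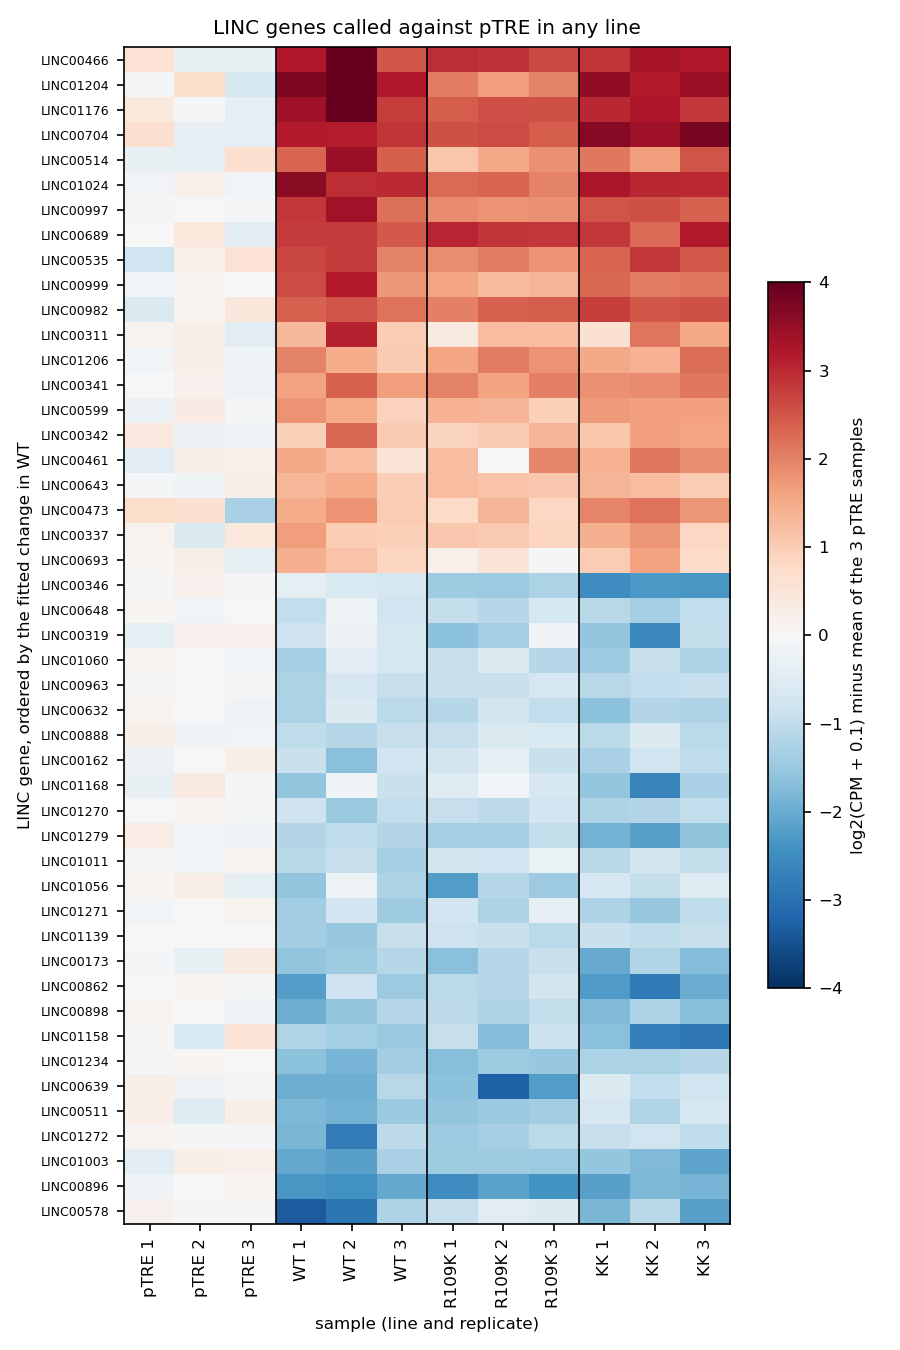
Heat map of the 47 LINC genes called against pTRE in any line (rows, ordered by the fitted change in WT) in the 12 samples (columns), coloured by log2(CPM + 0.1) minus the mean of the 3 pTRE samples. The 21 up-regulated genes are at the top and the 26 down-regulated genes below, and LINC00346 turns darkest in the 3 KK samples.

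The 13 LINC RNAs up-regulated in every E2F1 line were LINC00466, LINC01204, LINC01176, LINC00704, LINC01024, LINC00997, LINC00689, LINC00535, LINC00999, LINC00982, LINC01206, LINC00341, and LINC00643. With a replicate left out, 11 of the 13 kept every call, while LINC01206 lost calls in each line in some fits. LINC00643 lost its R109K call in 6 of 6 fits and its WT and KK calls in 3 of 6 each. LINC00704, now named MANCR for mitotically associated long noncoding RNA, had 0.331, 0.114, and 0.110 CPM in the pTRE samples, and 2.32, 2.25, and 1.84 in WT. It had 3.22, 2.74, and 3.63 CPM in KK and 1.46, 1.53, and 1.35 in R109K. The 4 groups did not overlap in LINC00704, with KK the highest and pTRE the lowest. Its log2 change against pTRE was 3.52 in WT (SE 0.37, adjusted p = 3.22e-06), 4.11 in KK (SE 0.36, adjusted p = 5.83e-07), and 2.96 in R109K (SE 0.37, adjusted p = 3.2e-05). LINC00705, which overlaps it by 337 exon bases on the opposite strand, changed by 3.67, 4.20, and 2.98 on a mean of 7.67 reads. The kit keeps the strand of the RNA, but the strand setting of the counting is not given in the sources used here, so reads of overlapping genes on opposite strands cannot be told apart.

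LINC00466 had 2 reads over the 3 pTRE samples (0.0826, 0, and 0 CPM). In WT it had 1.03, 1.85, and 0.578 CPM, in R109K 0.843, 0.799, and 0.655, and in KK 0.796, 1.10, and 1.03. All 9 E2F1 samples lay above the pTRE samples. The ratio of counts to pTRE, after scaling for depth, was 38.8 in WT (95% exact interval 10.3 to 326), 37.3 in KK (9.95 to 314), and 30.0 in R109K (7.99 to 253), and these intervals cover counting error only. The test gave adjusted p = 6.24e-05 in WT, 8.72e-05 in KK, and 0.000287 in R109K. Its nearest coding gene, among those with a symbol in the counts, is FOXD3, a neural crest transcription factor, which had a mean of 0.25 reads and was not tested.

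Several of these RNAs had their highest level in WT replicate 2. LINC01176 had 1.16, 0.798, and 0.625 CPM in pTRE and 9.80, 17.3, and 6.29 in WT, while it had 7.54, 8.69, and 6.51 in KK and 4.96, 5.52, and 5.41 in R109K. LINC00997 had 6.86, 6.57, and 6.43 CPM in pTRE and 47.3, 68.3, and 30.8 in WT, while it had 38.0, 38.8, and 34.1 in KK and 24.7, 23.3, and 23.7 in R109K. In both genes the pTRE samples lay below every other sample, and the R109K samples below every WT and KK sample. The log2 changes of LINC01176 were 3.67 (WT), 3.14 (KK), and 2.63 (R109K), and those of LINC00997 were 2.87, 2.48, and 1.85. Without WT replicate 2 the changes in WT were 3.23 and 2.56, and both calls were kept. LINC00997 shares 290 exon bases on the opposite strand with DPY19L1P1, a pseudogene transcript that changed by 1.39 in WT (SE 0.26), 0.91 in KK (SE 0.26), and 0.72 in R109K (SE 0.26).

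LINC00999 had 5.45, 6.31, and 5.88 CPM in pTRE, 36.3, 53.7, and 19.6 in WT, 29.4, 24.6, and 26.2 in KK, and 17.6, 14.4, and 15.2 in R109K. It was higher than pTRE in 9 of 9 samples, by 2.62 (SE 0.27) in WT, 2.19 (SE 0.26) in KK, and 1.42 (SE 0.26) in R109K on the log2 scale. Without WT replicate 2 its change in WT was 2.25. LINC00342 and LINC00311 were called up in WT only with WT replicate 2. LINC00342 had 59.3, 149.8, and 63.9 CPM in WT against 40.2, 26.2, and 27.5 in pTRE, a change of 1.53 that became 0.98 without that sample (adjusted p = 0.000831). LINC00311 had 0.962, 3.53, and 0.759 CPM in WT against 0.372, 0.418, and 0.220 in pTRE, a change of 2.27 that became 1.35 (adjusted p = 0.0488). LINC00342 rose in KK as well, by 1.43 (SE 0.29, adjusted p = 0.00132), a call lost without pTRE replicate 3.

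LINC00689 is on chromosome 7 from 158799213 to 158822886 on the plus strand over all its transcripts. Its levels were 0.620, 0.874, and 0.441 CPM in pTRE, 4.95, 4.98, and 3.83 in WT, 5.87, 5.20, and 5.08 in R109K, and 5.09, 3.36, and 6.36 in KK. The E2F1 lines overlapped one another and lay above pTRE in 9 of 9 samples. The log2 changes were 2.82 in WT (SE 0.29), 2.93 in KK (SE 0.29), and 3.05 in R109K (SE 0.29). It shares 2021 exon bases with VIPR2, a receptor for vasoactive intestinal peptide on the opposite strand, whose own changes were 2.71 (SE 0.36), 2.85 (SE 0.36), and 3.44 (SE 0.35) in the same order. Which gene these reads came from was not tested.

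LINC00982, now PRDM16-DT, starts 115 bases from PRDM16, a transcription factor gene read in the other direction. It had 0.165, 0.342, and 0.441 CPM in pTRE, 1.96, 2.17, and 1.70 in WT, 1.52, 1.96, and 2.05 in R109K, and 2.60, 2.11, and 2.25 in KK. Every E2F1 sample lay above pTRE. It changed by 2.57 (SE 0.34) in WT, 2.84 (SE 0.33) in KK, and 2.51 (SE 0.33) in R109K. PRDM16 itself went from 3.07 ± 0.309 CPM in pTRE to 6.46 ± 0.613 in R109K, 4.41 ± 0.351 in WT, and 4.23 ± 0.663 in KK (SD, n = 3), and it passed the thresholds in R109K (1.07, SE 0.17, adjusted p = 0.000316).

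LINC00341 is listed by RefSeq within SYNE3, a gene for a nuclear envelope spectrin-repeat protein, although the counts hold a row for each. LINC00341 went from 2.69, 3.00, and 2.39 CPM in pTRE to 8.44, 14.2, and 8.82 in WT, 11.0, 8.36, and 11.1 in R109K, and 9.72, 10.3, and 11.8 in KK. All E2F1 samples lay above pTRE, by 1.94 (SE 0.21) in WT, 1.98 (SE 0.21) in KK, and 1.91 (SE 0.21) in R109K. SYNE3 changed by 1.94, 1.60, and 1.60 (SE 0.21 in each). The remaining up-regulated genes of this group were LINC00535, now CIBAR1-DT (2.77 in WT, 2.81 in KK, 2.14 in R109K), LINC01206 (2.07, 2.30, and 2.37), and LINC00643 (1.43, 1.39, and 1.32).

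**Figure D3:**
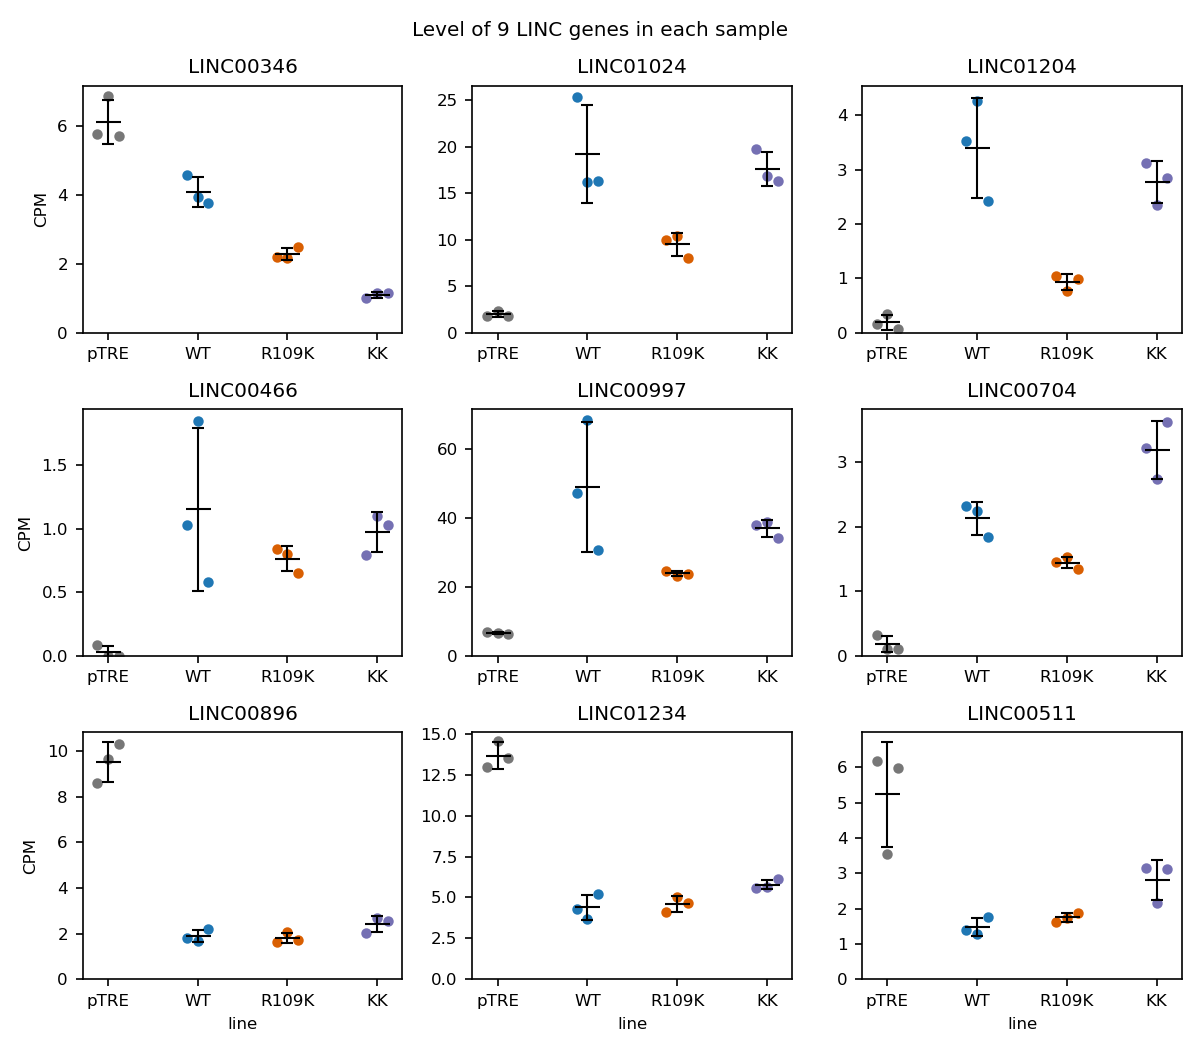
Level of 9 LINC genes in each of the 12 samples (CPM on linear axes that start at 0), with points for replicates and black bars for the mean and SD of 3. LINC00346 steps down from pTRE through WT and R109K to KK, LINC01024 and LINC01204 are lower in R109K than in WT and KK, and LINC00896, LINC01234, and LINC00511 are highest in pTRE.

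The 6 LINC RNAs down-regulated in all 3 lines were LINC00896, LINC01003, LINC01234, LINC00173, LINC00898, and LINC01279. With a replicate left out, LINC00896 and LINC01234 kept their call in every fit, while the R109K call was lost in 4 of 6 fits for LINC00173, 6 of 6 for LINC00898, and 3 of 6 for LINC01003. The WT call of LINC00173 was lost without pTRE replicate 3 and that of LINC01279 without pTRE replicate 1. LINC00896, a single-exon gene on chromosome 22 from 20193903 to 20196047, had 8.59, 9.65, and 10.3 CPM in pTRE and 1.82, 1.69, and 2.20 in WT. It had 2.04, 2.69, and 2.57 CPM in KK and 1.62, 2.07, and 1.72 in R109K. Every E2F1 sample lay below the lowest pTRE sample. The log2 change was -2.30 in WT (SE 0.20, adjusted p = 4.03e-07), -1.97 in KK (SE 0.19, adjusted p = 1.33e-06), and -2.40 in R109K (SE 0.19, adjusted p = 5.14e-07).

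LINC01234 had 13.0, 14.6, and 13.5 CPM in pTRE, 4.27, 3.69, and 5.20 in WT, 4.08, 5.05, and 4.67 in R109K, and 5.57, 5.67, and 6.12 in KK. It was lower in 9 of 9 E2F1 samples, and KK did not overlap WT or R109K. The changes were -1.62 (SE 0.16) in WT, -1.24 (SE 0.15) in KK, and -1.57 (SE 0.15) in R109K. LINC01003, a single-exon gene, fell from 1.86, 2.96, and 2.90 CPM in pTRE to 0.534, 0.482, and 0.976 in WT, 0.875, 0.872, and 0.860 in R109K, and 0.796, 0.672, and 0.513 in KK. The highest E2F1 sample of LINC01003 was thus below the lowest pTRE sample. LINC00898 changed by -1.60, -1.65, and -1.13 in WT, KK, and R109K, and LINC00173 by -1.45, -1.74, and -1.28.

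LINC01279 is listed by RefSeq within CCDC80, which encodes a secreted matrix protein. It had 14.0, 10.5, and 9.99 CPM in pTRE, 4.95, 5.54, and 5.02 in WT, 4.31, 4.36, and 5.77 in R109K, and 2.98, 2.45, and 3.63 in KK. All E2F1 samples were below pTRE, and the KK samples were the lowest. LINC01279 changed by -1.15 (SE 0.19) in WT, -1.92 (SE 0.20) in KK, and -1.25 (SE 0.19) in R109K. CCDC80 changed by -1.36 (SE 0.15), -1.34 (SE 0.15), and -1.06 (SE 0.15) from 208 ± 27.9 CPM in pTRE (SD, n = 3).

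Down-regulated LINC RNAs that were called in part of the lines included LINC00511, LINC00639, LINC00578, LINC01272, LINC00862, and LINC01158. LINC00511, an RNA that has been described as a scaffold for the EZH2 complex, had 6.20, 3.53, and 5.99 CPM in pTRE, 1.39, 1.29, and 1.77 in WT, 1.62, 1.74, and 1.88 in R109K, and 3.15, 2.16, and 3.12 in KK. KK was between the other groups and overlapped none of them. Its changes were -1.80 (SE 0.26) in WT, -1.58 (SE 0.25) in R109K, and -0.89 (SE 0.24, adjusted p = 0.00982) in KK, which is under 2-fold. The difference between KK and WT was 0.91 (SE 0.27, adjusted p = 0.574). LINC00639 had 1.82, 1.37, and 1.43 CPM in pTRE and 0.421, 0.0727, and 0.246 in R109K, a change of -2.59 (SE 0.46, adjusted p = 0.00063). In WT it changed by -1.78 (SE 0.44, adjusted p = 0.00507), and in KK by -0.84 (SE 0.41, adjusted p = 0.121). The WT call of LINC00639 was lost in 4 of 6 fits with a replicate left out. LINC00578 changed by -2.52 in WT (SE 0.58, adjusted p = 0.00299), where its level in WT replicate 3 was 0.470 CPM and in the other WT samples 0.0356 and 0.0803. Its change was -4.52 without WT replicate 3, and the call was lost without WT replicate 1 (-1.94), without pTRE replicate 1, and with only the 6 samples compared.

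LINC01158 is PANTR1, an RNA beside POU3F3, a neural transcription factor. It had 1.24, 0.760, and 1.80 CPM in pTRE and 0.311, 0.0960, and 0.0790 in KK, a change of -2.87 (SE 0.52, adjusted p = 0.000488). In WT it had 0.463, 0.402, and 0.361 CPM, a change of -1.62 (SE 0.47, adjusted p = 0.0128), and in R109K 0.583, 0.291, and 0.614, a change of -1.35 (SE 0.45, adjusted p = 0.0342). The pTRE samples lay above every other sample, while KK and R109K overlapped. LINC00862 had 6.07, 6.35, and 5.80 CPM in pTRE and 1.18, 0.768, and 1.46 in KK, a change of -2.40 (SE 0.31), while WT had 1.25, 3.37, and 2.13, a change of -1.50 (SE 0.30). The genes called down against pTRE in KK and in neither other line included LINC01168 (-2.17, SE 0.52, adjusted p = 0.00424) and LINC00319 (-1.69, SE 0.47, adjusted p = 0.00991). In R109K alone LINC01056 was called (-1.93, SE 0.49, adjusted p = 0.00844) with all 12 samples. Without WT replicate 2 it was called down in WT as well (-1.74, adjusted p = 0.00827). With a replicate left out, the call was lost in 4 of 6 fits for LINC01168, 5 of 6 for LINC00319, and 6 of 6 for LINC01056. LINC01158 and LINC01056 reached the minimum mean count only through pTRE, so their falls are not independent of their selection. A call in 1 line and not in another is not a test between them. None of these genes was called by edgeR in a direct comparison of the lines, and DESeq2 called LINC00862 in R109K against KK.

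A group of neighbouring LINC genes on chromosome 20 fell together. LINC01272 (48864180 to 48899787), LINC01270 (48909246 to 48932025), and LINC01271 (48916413 to 48938023) lie beside CEBPB, a transcription factor gene of the C/EBP family. LINC01270 had 6.11, 6.65, and 5.88 CPM in pTRE, 3.46, 2.17, and 3.07 in WT, 3.24, 2.98, and 3.64 in R109K, and 2.56, 2.69, and 3.08 in KK. LINC01271 had 5.37, 5.70, and 6.39 CPM in pTRE, 2.17, 3.37, and 2.10 in WT, 3.40, 2.43, and 4.59 in R109K, and 2.39, 1.97, and 2.84 in KK. The less abundant LINC01272, now PELATON, had 1.24, 1.10, and 1.10 CPM in pTRE and 0.249, 0.0803, and 0.506 in WT. In R109K and KK it had 0.357, 0.3997, and 0.491 and then 0.554, 0.624, and 0.513. In each of the 3 genes all pTRE samples were above all E2F1 samples. Their changes in WT were -1.07, -1.23, and -1.88 for LINC01270, LINC01271, and LINC01272, all called, and LINC01270 and LINC01271 were also called in KK (-1.16 and -1.27). Without WT replicate 2, LINC01270 changed by -0.93 in WT, which is under 2-fold. The WT call of LINC01272 was lost without pTRE replicate 1 or WT replicate 1. In R109K the changes were -0.92, -0.75, and -1.46, of which none was called. LINC01270 and LINC01271 overlap by 1719 exon bases on opposite strands, so they are not separate measurements. CEBPB changed by 0.03 (SE 0.18, adjusted p = 0.899) in WT, 0.24 (SE 0.18) in KK, and 0.04 (SE 0.18) in R109K.

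The E2F1 lines were then compared with each other, which asks whether the level of a LINC gene differed between lines with different forms of E2F1. In R109K against WT, 2 LINC genes were lower (1.08%, with a background of 0.247%) and 0 higher (background 0.0962%). In KK against WT, 1 was lower (0.538%, background 0.00602%) and 0 were higher (background 0%). In R109K against KK, 0 LINC genes were called by edgeR, with a background of 0.0421% up and 0.0481% down. At an unadjusted p below 0.05, the numbers were 34, 23, and 26 of 186 LINC genes in the same order. Over all 16625 genes tested they were 3714, 1415, and 2062. The LINC share was lower than that of all genes in R109K against WT and higher in the other comparisons. Among LINC genes, DESeq2 called 5 in R109K against WT, 1 in KK against WT, and 5 in R109K against KK. In KK against WT, LINC00346 was the only gene of the 16625 tested that this edgeR fit called, while DESeq2 called 5 genes, 4 were called with no filter, and 0 were called with the replicate block or with only the 6 samples compared.

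LINC00346 is a single-exon gene of 6344 bases on chromosome 13, from 111516334 to 111522677 on the minus strand, now named PRECSIT for its reported regulation by p53 and activation of STAT3. Its level was 5.78, 6.88, and 5.73 CPM in pTRE, 4.60, 3.94, and 3.76 in WT, 2.20, 2.18, and 2.498 in R109K, and 1.00, 1.15, and 1.15 in KK. No value of any line overlapped those of another, and the order was pTRE, WT, R109K, KK. The difference of KK from WT was -1.90 (SE 0.20, adjusted p = 0.00157). R109K differed from WT by -0.84 (SE 0.19, adjusted p = 0.0234) and from KK by 1.06 (SE 0.20, adjusted p = 0.0247), neither of which passed the threshold of 0.01. Against pTRE, the changes were -0.58 (SE 0.18, adjusted p = 0.0174) in WT, -1.42 (SE 0.18, adjusted p = 3.9e-05) in R109K, and -2.48 (SE 0.20, adjusted p = 2.03e-07) in KK. E2F1 RNA differed from WT by -0.46 (SE 0.18, adjusted p = 0.574) in KK and by -0.65 (SE 0.18, adjusted p = 0.0577) in R109K, and the 2 derivatives differed in it by -0.18 (SE 0.18, adjusted p = 0.773). The call of KK against WT was lost in 6 of 12 other settings, glmTreat and the threshold of 0.05 not counted, and over these 12 the difference stayed between -1.95 and -1.80 and the adjusted p ran from 2.42e-09 to 0.188.

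ANKRD10 was the coding gene nearest to LINC00346, at 44739 bases, among those with a symbol in the counts. It had 63.0 ± 4.57 CPM in pTRE, 88.4 ± 13.9 in WT, 67.4 ± 3.39 in R109K, and 67.4 ± 2.73 in KK (SD, n = 3). The LINC genes whose level followed that of LINC00346 most closely over the 12 samples were LINC01279 (Pearson's r = 0.886), LINC01260 (0.832), LINC00648 (0.816), LINC00565 (0.808), and LINC01158 (0.797). These values are descriptions, since the points share lines and libraries. LINC00648, for example, had 17.3, 14.9, and 16.3 CPM in pTRE, 8.16, 14.0, and 9.18 in WT, 8.33, 7.19, and 9.79 in R109K, and 7.47, 6.24, and 8.05 in KK. LINC00648 was highest in pTRE, and its WT values overlapped R109K.

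LINC01024 is MALINC1, named as a mitosis-associated long intergenic noncoding RNA, on chromosome 5 from 139450897 to 139488859 on the minus strand. It had 1.82, 2.32, and 1.84 CPM in pTRE, 25.3, 16.1, and 16.3 in WT, 19.7, 16.9, and 16.3 in KK, and 9.92, 10.4, and 8.07 in R109K. WT and KK overlapped, and every R109K sample lay between them and pTRE. R109K differed from WT by -1.03 (SE 0.18, adjusted p = 0.00819) and from KK by -0.89 (SE 0.18, adjusted p = 0.0303), while KK differed from WT by -0.13 (SE 0.18, adjusted p = 0.782). Against pTRE it changed by 3.28 (SE 0.21) in WT, 3.14 (SE 0.21) in KK, and 2.25 (SE 0.21) in R109K. PURA, a single-stranded nucleic acid binding protein whose gene shares 334 exon bases with it on the opposite strand, changed by 0.59 (SE 0.13), 0.63 (SE 0.13), and 0.45 (SE 0.13) in the same order.

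LINC01204, on the X chromosome from 45364633 to 45491366, had 0.165, 0.342, and 0.0735 CPM in pTRE. It had 3.53, 4.26, and 2.42 in WT, 3.11, 2.35, and 2.84 in KK, and 1.04, 0.763, and 0.983 in R109K. R109K again overlapped neither WT and KK above it nor pTRE below. The difference of R109K from WT was -1.85 (SE 0.33, adjusted p = 0.00904), that from KK was -1.58 (SE 0.33, adjusted p = 0.0343), and KK differed from WT by -0.27 (SE 0.31, adjusted p = 0.742). Against pTRE it changed by 4.09 (SE 0.41) in WT, 3.81 (SE 0.41) in KK, and 2.24 (SE 0.43, adjusted p = 0.00116) in R109K. Without WT replicate 2 both R109K calls were kept, at -1.14 for LINC01024 and -1.68 for LINC01204. Both were lost without WT replicate 1, without R109K replicate 1, 2, or 3, and with only the 6 samples compared, and apart from glmTreat and the threshold of 0.05, LINC01024 was called in 7 of 12 alternative settings and LINC01204 in 5 of 11. E2F1 itself had 1158 CPM in R109K and 1811 in WT, and the part of that difference in these values was not tested.

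A further reading of the direct comparisons comes from DESeq2, whose 5 calls in R109K against WT were LINC01024, LINC01204, LINC00997, LINC00999, and LINC00528. LINC00528, named after its values were seen, moved the other way. It had 1.98, 3.08, and 3.38 CPM in pTRE, 1.57, 1.93, and 1.84 in WT, 1.21, 1.87, and 1.18 in KK, and 3.89, 3.16, and 4.75 in R109K. Its R109K samples lay above those of WT and KK, and overlapped pTRE. In edgeR it was not called against pTRE in any line, with changes of -0.67 (SE 0.27) in WT, -0.998 (SE 0.27, adjusted p = 0.0097) in KK, and 0.48 (SE 0.26) in R109K, the KK change being just under 2-fold.

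The LINC genes were also read by what is known of their products, in 3 lists. Of 13 measured genes listed as encoding a small protein, 1 was called, LINC00514, which is now GREP1. Of all genes tested, 11.8% were called in WT and 10.9% in KK, so nothing is read from this count. LINC00514 had 0.0826, 0.0760, and 0.257 CPM in pTRE, 1.03, 2.33, and 1.08 in WT, 0.865, 0.624, and 1.18 in KK, and 0.389, 0.545, and 0.696 in R109K. All E2F1 samples were above pTRE, and it was up in WT (3.29, SE 0.53, adjusted p = 0.000189) and KK (2.63, SE 0.54, adjusted p = 0.00134), while R109K gave 1.90 (SE 0.56, adjusted p = 0.0194). Its KK call was lost without pTRE replicate 1 or pTRE replicate 2. The median change of the 13 was -0.37 in WT, -0.15 in KK, and -0.11 in R109K. LINC00998 (SMIM30) had 54.9, 46.0, and 45.1 CPM in pTRE and 28.7, 21.0, and 31.4 in WT, a change of -0.84 (SE 0.16, adjusted p = 0.000869) that is under 2-fold. LINC00116 encodes mitoregulin, a peptide of the inner mitochondrial membrane, and its change was -0.40 in WT, 0.14 in KK, and 0.32 in R109K, with no call.

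Among 5 measured hosts of microRNAs or of a circular RNA, 2 rose and 1 fell in KK, and 1 rose in WT. None was called by edgeR in R109K, where 4 had an unadjusted p below 0.05. No share of all genes at that unadjusted threshold is given. Called in either direction against pTRE were 11.8% (WT), 10.9% (KK), and 7.19% (R109K) of all genes tested. LINC00461 and LINC00925 are now MIR9-2HG and MIR9-3HG, and both host miR-9, whose mature 5′ arm is the same for both loci in RefSeq (GRCh38.p14) and is shown with its seed, bases 2 to 8, in capitals.
miR-9-5p: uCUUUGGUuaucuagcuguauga
LINC00461 was called in KK, where it had 0.554, 0.960, and 0.790 CPM against 0.0826, 0.190, and 0.184 in pTRE, a change of 2.27 (SE 0.60, adjusted p = 0.00772). This call was lost whichever replicate of KK or pTRE was left out (adjusted p = 0.0109 to 0.0409). LINC00461 also reached the minimum mean count only through KK, so this rise is not independent of its selection. LINC00925 had 3.92, 4.60, and 4.08 CPM in pTRE, 9.01, 9.32, and 6.65 in WT, 8.20, 7.87, and 8.05 in KK, and 8.30, 8.72, and 7.25 in R109K. All its E2F1 samples lay above pTRE, but its changes of 0.98 (SE 0.16), 0.94 (SE 0.16), and 0.95 (SE 0.16) were under 2-fold. LINC00599, now MIR124-1HG, was up in WT (1.86, SE 0.44, adjusted p = 0.00358) and KK (2.10, SE 0.43, adjusted p = 0.00125). Its WT call was lost in 3 of 6 fits with a replicate left out. LINC00632, from whose locus the circular RNA CDR1-AS comes, had 5.87, 5.24, and 4.81 CPM in pTRE and 1.63, 2.31, and 2.17 in KK, a change of -1.39 (SE 0.23, adjusted p = 0.000258). It was also called in WT without WT replicate 2 (-1.21, adjusted p = 0.000414). Poly(A) selection does not capture circular RNA or mature microRNA, so these are levels of the host transcript.

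Of 19 measured LINC RNAs with a described function, LINC01139 and LINC00511 fell in WT, LINC00346 and LINC00511 in R109K, and LINC00346 in KK, where LINC00473 rose. This makes 2 of 19 in each line, beside the 11.8% (WT), 10.9% (KK), and 7.19% (R109K) called among all genes tested, and nothing is read from these counts. Without WT replicate 2, LINC01021 was called down in WT as well (-1.07, adjusted p = 0.00169). The median change of the 19 was 0.13 in WT, -0.10 in KK, and -0.45 in R109K. LINC01139, described as a kinase-activating RNA at the membrane, had 8.68, 8.78, and 8.74 CPM in pTRE and 3.24, 2.97, and 4.59 in WT, a change of -1.26 (SE 0.17, adjusted p = 4.81e-05). Its changes in KK and R109K were -0.94 (SE 0.17) and -0.95 (SE 0.17). LINC00473, an RNA induced by cyclic AMP, had 0.744, 0.684, and 0.110 CPM in pTRE and 1.90, 2.26, and 1.66 in KK. It changed by 1.92 in KK (SE 0.46, adjusted p = 0.00407), a call lost without KK replicate 1 or KK replicate 2. RefSeq lists its symbol as a synonym of PDE10A, a cyclic nucleotide phosphodiesterase, which changed by 1.19 (SE 0.16) in WT, 1.02 (SE 0.16) in KK, and 0.73 (SE 0.16) in R109K. LINC00657 (NORAD) had 290.5, 294.1, and 259.0 CPM in pTRE, 235.8, 204.5, and 225.7 in WT, 223.6, 158.3, and 210.6 in KK, and 214.0, 179.2, and 190.1 in R109K. All pTRE samples of NORAD were above all E2F1 samples, with changes of -0.34 (SE 0.14, adjusted p = 0.0571) in WT, -0.51 (SE 0.14, adjusted p = 0.0082) in KK, and -0.53 (SE 0.14, adjusted p = 0.00821) in R109K, all under 2-fold.

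Changes of a LINC gene were set beside those of its nearest coding gene. Of all genes tested, WT had 11.8% called in either direction against pTRE, KK 10.9%, and R109K 7.19%. Only coding genes whose GENCODE symbol is also in the counts could serve as neighbours, so a gene listed under another symbol was passed over. LINC00535, now CIBAR1-DT, was paired with RBM12B at 40576 bases. By the distance between start sites, the nearest coding gene of this kind lay within 50 kb and was tested for 59 LINC genes. In WT, 9 of these LINC genes were called, and 0 of their neighbours were called by edgeR, while in KK 11 were called with 0 neighbours, and in R109K 7 with 1, which was PRDM16. At an unadjusted p below 0.05 the neighbours numbered 4 of 9, 6 of 11, and 3 of 7. No share of all genes at that unadjusted threshold is given, so nothing is read from these numbers. The signs were the same in 6 of the 9, 7 of the 11, and 4 of the 7 pairs. Over the 59 pairs, Pearson's r between the changes of the LINC gene and the neighbour was 0.225 in WT, 0.251 in KK, and 0.186 in R109K, a description across genes that share the same libraries. Beyond 50 kb, neighbours called in the same direction stood beside 3 of 21 called LINC genes in WT, 3 of 18 in KK, and 3 of 13 in R109K. They were VIPR2 beside LINC00689, KBTBD2 beside LINC00997, and SYT16 beside LINC00643 in each line. Exons of VIPR2 and LINC00689 overlap, although their start sites lie 136447 bases apart. LINC00341 and LINC01279 were not placed and so are in no pair. Their RefSeq genes SYNE3 and CCDC80 moved the same way as these LINC genes, by over 2-fold in each line. The counts within 50 kb thus leave out some overlapping or merged genes that moved with their LINC gene. RTN4R, which encodes a Nogo receptor, moved against LINC00896, by 1.08 in WT and 1.30 in KK. A head-to-head start within 2 kb of a coding gene with a symbol in the counts was found for 14 LINC genes, among which LINC00982 was called. Without WT replicate 2, LINC00936 (1.48, adjusted p = 0.00181) and LINC00476 (-1.06, adjusted p = 0.00021) were called in WT as well. LINC00936 starts 121 bases from ATP2B1, a plasma membrane calcium pump, and changed by 1.23 in WT (SE 0.37, adjusted p = 0.0159) with that replicate included. ATP2B1 was called up (1.04, SE 0.13).

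**Figure D4:**
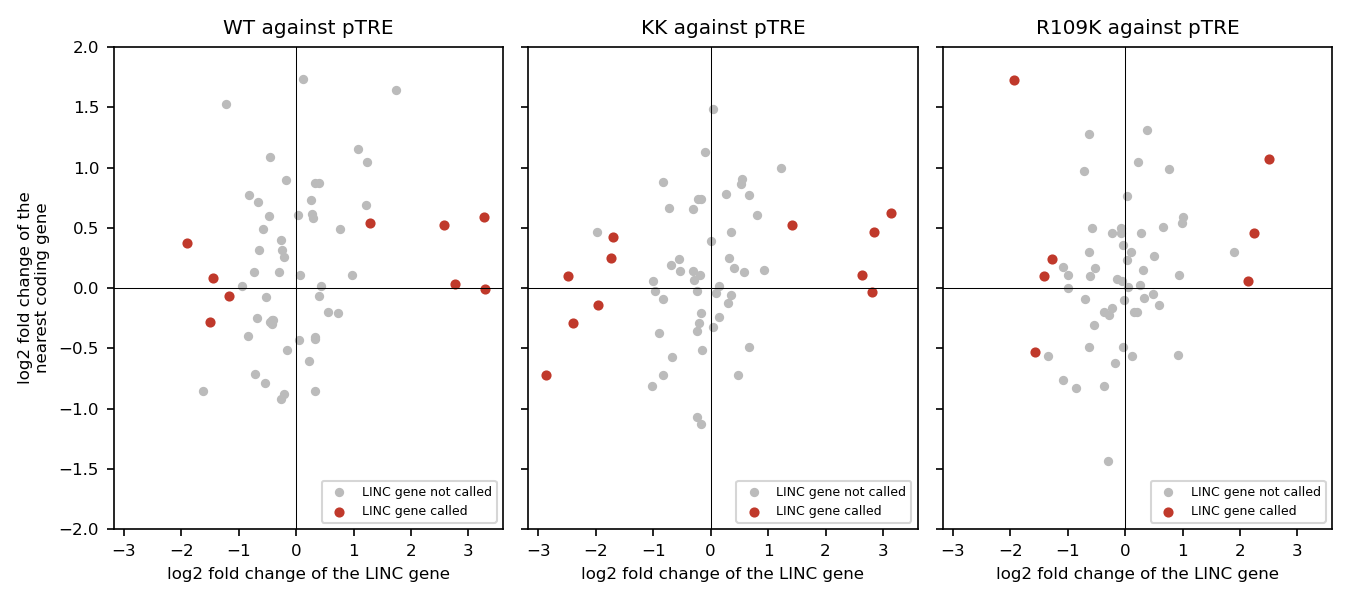
Log2 fold change against pTRE of a LINC gene (horizontal axis) and of its nearest coding gene (vertical axis) for the 59 pairs within 50 kb, in WT, KK, and R109K, with called LINC genes in red. Only coding genes whose GENCODE symbol is also in the counts were used. Called LINC genes lie up to 3.29 units from 0 on the horizontal axis, while all but 2 of their neighbours lie within 1 unit on the vertical axis, the exceptions being PRDM16 (1.07) and BHLHE23 (1.73) in R109K.

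The read share of the LINC genes was small and nearly even. They took 0.168% to 0.182% of reads on genes in pTRE, 0.154% to 0.162% in R109K, 0.156% to 0.169% in KK, and 0.165%, 0.220%, and 0.160% in WT replicates 1, 2, and 3. WT replicate 2 thus lay above all others, and it was the highest of 12 samples in 61 LINC genes (32.8%), against 23.9% of all genes tested. It lay above both other WT replicates in 106 of the 186 (57.0%, against 39.9% of all genes tested). Without it, 38 LINC genes were called in WT against pTRE, 17 up and 21 down, of which 30 were among the 36. The calls lost were LINC00162, LINC00311, LINC00342, LINC00693, LINC00888, and LINC01270. Those gained were LINC00476, LINC00632, LINC00936, LINC00942, LINC00963, LINC01021, LINC01056, and LINC01060. In WT replicate 2 the share of reads assigned to no gene feature moved with these values, and the part of that share in them was not tested.

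**Figure D5:**
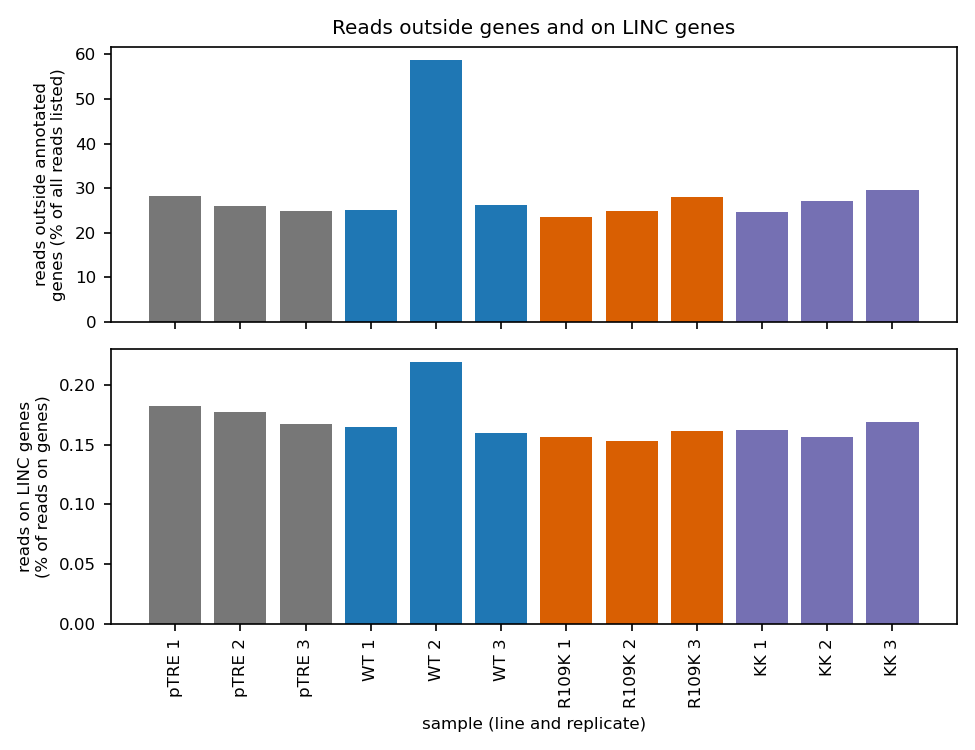
Percentage of listed reads assigned to no gene feature (upper bars, labelled as outside annotated genes) in each of the 12 samples, coloured by line. The lower bars give the percentage of reads on genes that fell on the 186 LINC genes. WT replicate 2 is the highest in both, at 58.7% and 0.220%.

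Overlap with other genes limits how far single LINC levels can be read. Exons of 71 of the 169 placed LINC genes overlapped another gene on the opposite strand and those of 27 on the same strand. Of the 42 called LINC genes that were placed, 18 overlapped a gene on the opposite strand. In addition, 48 of 166 LINC genes had a stretch of at least 200 bases with at least 98% identity in the exons of another gene, 10 of them called, among them LINC00342, LINC00997, LINC01270, and LINC01271. How reads shared by such genes were assigned is not given in the sources used here.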

How the data were processed

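Reads were trimmed with Trim Galore 0.4.3 and aligned to hg19 with STAR 2.5.1, and for each of the 12 samples the authors deposited whole, unnormalized counts per gene. The version of the gene annotation and the strand setting of the counting are not given in the sources used here. The 5 summary lines after the genes stayed out of library sizes and tests. The line for reads assigned to no gene feature held 23.6% to 58.7% of the reads listed. None of the 66 pairs of samples was identical.

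The counts were tested with edgeR 4.0.16 (R 4.3.3). After filterByExpr, which kept 16625 genes, and TMM normalization, a quasi-likelihood model of all 12 samples was fitted in which each line had its own mean. Benjamini-Hochberg adjustment ran over all genes tested, and a call needed over 2-fold change with adjusted p below 0.01, the thresholds of the study's methods. CPM values use TMM library sizes. DESeq2 1.42.0 was an alternative, and the others are given in the closing section. On simulated counts the fit was tested before use.

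Annotation was GENCODE on GRCh37, with current names from RefSeq and similar sequences found by blastn 2.17.0. The genes and lists were chosen with earlier results of these data known. Genes were named by rule: those called in a direct comparison, up to 10 largest rises and 10 largest falls per line, the 5 highest per kilobase, and the listed genes. Other called genes were named after their values were seen.

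Same-numbered replicates did not deviate together (mean correlation 0.0436 over 18 pairs, from -0.295 to 0.470, with 5 over 0.1), so the number was not taken as a pairing.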

Additional observations from a re-analysis of the deposited data

Results flagged for a closer look

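In the main edgeR fit, levels differed by a direct test between lines with different forms of E2F1 for 3 LINC genes. With 1 line per form, the form and the line cannot be told apart. LINC00346 was lower in KK than in WT, by a log2 change of -1.90 (adjusted p = 0.00157 in edgeR), in 3 of 3 samples. LINC01024 was lower in R109K than in WT, at -1.03 (adjusted p = 0.00819), in 3 of 3 samples. LINC01204 was lower in R109K than in WT, at -1.85 (adjusted p = 0.00904), in 3 of 3 samples. Over the other settings without glmTreat, the adjusted p ran from 2.42e-09 to 0.188 for LINC00346, from 7.88e-05 to 0.0607 for LINC01024, and from 1.7e-05 to 0.056 for LINC01204.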

How the results depend on the processing

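Testing against 2-fold with glmTreat left 14, 15, and 10 LINC genes in WT, KK, and R109K against pTRE, and 0 in R109K against WT and in KK against WT. A minimum of 10 counts in every sample gave 23, 23, and 13 against pTRE and 1 in R109K against WT, and a mean raw count of at least 50 gave 20, 21, and 12, and 1 in R109K against WT, since both settings test or count fewer genes. An adjusted p under 0.05 gave 5 in R109K against WT and 4 in R109K against KK, and DESeq2 gave 5 in each. Without a filter, R109K against KK gave 1. With only the 6 samples compared, R109K against WT and KK against WT gave 0. With the replicate number as a block there was 1 call in R109K against WT and 0 in KK against WT, where LINC00346 stood at -1.90.

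With a replicate left out, the counts were 27 to 41 in WT, 29 to 38 in KK, 18 to 22 in R109K, 0 to 6 in R109K against WT, 0 to 1 in KK against WT, and 0 in R109K against KK. R109K against WT gave 6 without WT replicate 3, and 0 without WT replicate 1 or without R109K replicate 1, 2, or 3. KK against WT gave 0 without WT replicate 1 or without KK replicate 1, 2, or 3. Apart from settings whose construction leaves fewer genes or samples, the cause was not tested. No result changed direction in any setting run. Of the 74 calls of named LINC genes, DESeq2 and RLE normalization kept 74 each, the block 72, and the 6-sample fits 69, while 59 of 444 results with a replicate left out lost their call.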
